A study of Mus musculus with 10 samples.

Results

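Lymphatic and blood endothelial cells (LECs and BECs) of the ear skin were compared within the same 2 control mice, 5 wk old, to show how the vessel types differ without the *Pik3ca* mutation. Single endothelial cells had been sorted into 384-well plates and sequenced with Smart-Seq2, which reads along the whole transcript and carries no molecular barcodes. Control 1 was an untreated C57BL/6J mouse with no genotype given (N/A). Control 2 was a Cre- mouse of the *Pik3ca*H1047R;*Cdh5-CreERT2* strain that had received 4-OHT, the ligand that activates CreERT2, topically on the ears at 3 wk of age (10 mg/ml). The 2 mice thus differ in strain and treatment and each stands for its condition alone. Another control mouse was not analysed here. The sort had used Podoplanin and CD31 with a gate against CD45, CD11b, Ter119 and dead cells, so *Pdpn*, *Pecam1*, *Ptprc* and *Itgam* were part of how the cells were collected. The labels call the sorted cells LECs, but per the methods both LECs and BECs were sorted, and each plate held both classes.

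Wells were kept with at least 50000 reads outside the spike-ins, at least 200 genes and at most 10% mitochondrial reads. A cell was taken as a LEC when *Prox1*, *Flt4* and *Mmrn1* summed to at least 300 CPM (CPM are reads scaled to the total reads of the cell) and to more than *Flt1*, *Emcn* and *Podxl* together, and as a BEC in the reverse case. This gave 358 LECs (183 and 175 in control 1 and control 2) and 316 BECs (159 and 157), 674 cells out of 724 control wells kept, 768 control wells in all and 3456 wells of the whole series. The other 50 kept wells had no class, and 17 of them had at least 1000 CPM of *Krt5*, *Krt14* and *Krt15*. The lowest gate sum of a cell in a class was 302 CPM and the highest of a well without class 268 CPM. Between 200 and 300 CPM lay 10 wells, and between 300 and 450 CPM lay 12. The same 343 well names occurred in both mice because a name gives the position on the plate, not the cell. Reads were added up per mouse and class, which made 4 sums of 55904244 and 61229272 reads for LECs and 46014548 and 41017823 reads for BECs. Tests were made over mice, with the LECs of a mouse set against its own BECs.

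Blood vessels carry pressurised flow and exchange oxygen, nutrients and leukocytes with the tissue. Lymphatic capillaries are blind-ended, take up interstitial fluid and immune cells through loosely sealed junctions, and pass them on through collecting vessels with valves. LEC identity is set up in the embryonic veins, where SOX18 and COUP-TFII (*Nr2f2*) induce *Prox1*, the homeobox factor that LECs need throughout life. VEGFR3 (*Flt4*) is the receptor for the lymphatic growth factor VEGFC. On the blood side VEGFR1 (*Flt1*) binds VEGFA, whereas endomucin (*Emcn*) and podocalyxin (*Podxl*) are sialomucins of the luminal surface.

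The genes of the gate separated the sums by construction and were left out of every test. In CPM after scaling, *Prox1* stood at 399 and 422 CPM in LECs against 6.2 and 3.51 CPM in BECs, *Flt4* at 1952 and 1933 CPM in LECs against 107 and 101 CPM in BECs and *Mmrn1*, an extracellular matrix protein of LECs, at 3953 and 2635 CPM in LECs against 101 and 23.2 CPM in BECs. *Flt1* stood at 18.2 and 4.36 CPM in LECs against 862 and 770.4 CPM in BECs. *Emcn*, however, was also well above zero in LECs, with 503 and 478 CPM in LECs against 731 and 850.2 CPM in BECs, as was *Podxl* with 199 and 163 CPM in LECs against 444 and 432 CPM in BECs. In all, 118 of 183 LECs in control 1 and 117 of 175 in control 2 had at least 300 CPM of the blood gate genes, against 34 and 18 BECs with as much of the lymphatic gate genes.

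**Figure D1:**
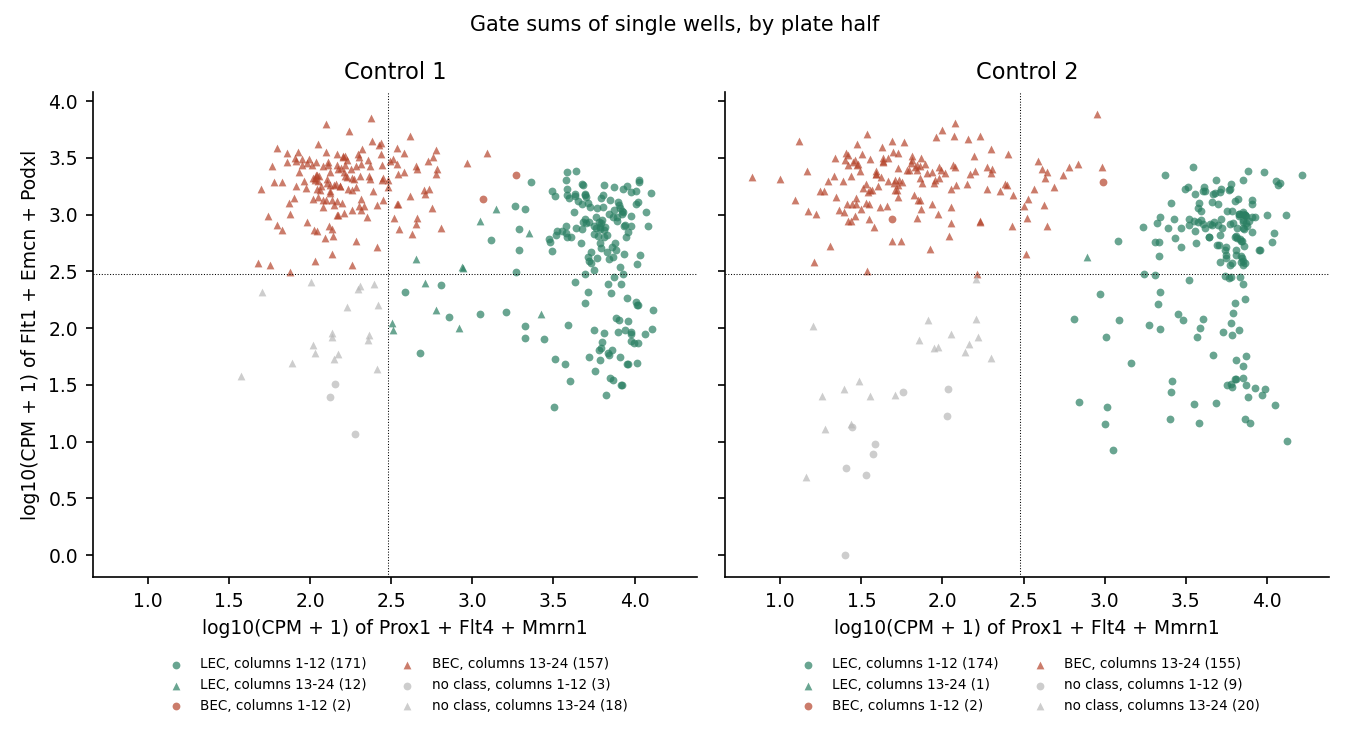
Each point is a kept well of control 1 (left) or control 2 (right). The axes give the summed CPM of the lymphatic gate genes (x) and of the blood gate genes (y) as log10 of CPM + 1, dotted lines mark 300 CPM, colours mark the class and symbols the side of the plate. LECs spread over a wide range of blood gate sums, 12 LECs of control 1 (green triangles) lie on the BEC side of the plate with low lymphatic sums, and wells without class lie below both lines.

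The classes lay apart on the plates. In control 1, 171 of 183 LECs lay in plate columns 1 to 12 and 157 of 159 BECs in the remaining columns, and in control 2 these were 174 of 175 and 155 of 157. Class and side of the plate can therefore not be told apart. The 12 LECs of control 1 on the BEC side went against their class in several genes. Their median lymphatic gate sum was 846 CPM, against 6209 CPM in the other LECs of that mouse, and their medians were 21.0 CPM against 451 CPM for *Pdpn*, 363 CPM against 12.8 CPM for *Vwf* and 412 CPM against 11.1 CPM for *Nrp1*. They held 64.3% of all *Vwf* reads and 56.6% of all *Nrp1* reads of the control 1 LECs. Results that rest on them are given below with and without the cells that lay on the other class's side.

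Even typical cells had a low level of the other class's genes. The level of the gate genes in the other class is limited by the gate, so the other markers are given. Over the median cell, *Pdpn*, *Lyve1* and *Reln* stood in control 1 BECs at 2.18 to 3.00% of their level in LECs, and *Cd34*, *Ly6c1* and *Vwf* in LECs at 1.73 to 3.04% of their level in BECs. In control 2 these ranges were 0.718 to 1.09% and 0.655 to 1.36%. A read of a marker at such a level in the other class is not taken as expression here. The markers above 10%, gate genes included, were *Ccl21a* in BECs (18.7 and 10.1% of the LEC level) and *Emcn* (37.4 and 44.6%), *Podxl* (15.5 and 20.2%) and *Plvap* (12.8 and 33.4%) in LECs. Median reads per cell were 286809 and 329516 in LECs and 277875 and 245506 in BECs, and median genes per cell 6551 and 5553 in LECs and 6419 and 4645 in BECs, so that in control 2 the LECs were read more deeply. LECs had 158 and 138 reads per spike-in read and BECs 129 and 94.5.

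Of 18337 genes with enough reads, 313 were higher in LECs (1.71% of those tested) and 337 higher in BECs (1.84%), at an adjusted p under 0.05 in edgeR's quasi-likelihood test with the mouse as a block. Together these 650 genes are 3.54% of those tested, and the smallest adjusted p was 0.0170. The differences were large, with a median size of 3.23 log2 units for genes higher in LECs and 3.25 for genes higher in BECs, and 239 and 269 of them were above 4-fold. The smallest called differences were 0.90 and 0.99 log2 units. In all, 3353 genes had an unadjusted p under 0.05. Sums of LECs and BECs did not overlap for 4038 genes on the LEC side (22.0%) and 4163 genes on the BEC side (22.7%). The sums were scaled with edgeR's TMM factors. Scaled to spike-in reads instead, the median of all genes moved towards LECs, to 0.43 log2 units, and the split became 634 and 323 genes. Directions below therefore hold relative to the other genes of each sum.

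**Figure D2:**
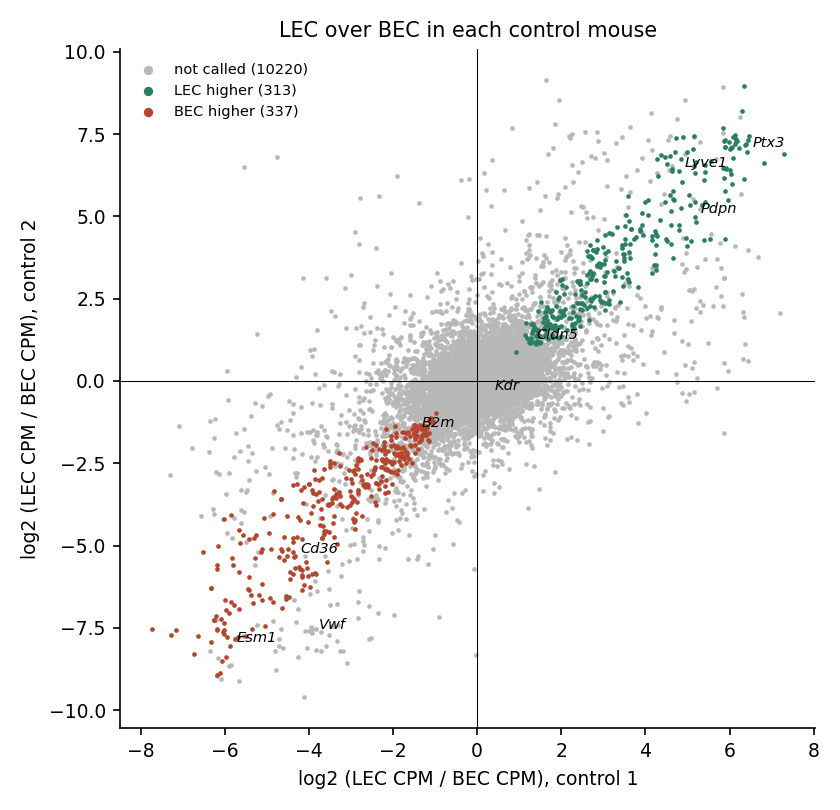
Each point is a gene, with its log2 ratio of LEC to BEC level in control 1 (x) and in control 2 (y), for genes with reads in all 4 sums and a mean log2 CPM of at least 3. Called genes (green and red) lie along the diagonal in both mice, from *Esm1* to *Ptx3*, whereas *Vwf* is grey because its ratio was smaller in control 1 than in control 2.

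Across the 10870 genes of that plot, which share libraries within each mouse, the ratios of the 2 mice had a Pearson r of 0.72, and 7294 had the same sign. This is a description over genes, which are not independent replicates.

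Genes that mark all endothelium differed in level between the vessel types. Among 12 pan-endothelial genes tested, 1 was higher in LECs and 5 were higher in BECs, with a median log2 difference of -0.78 beside -0.01 for all genes. The called members of this and the following lists are to be read beside 1.71% of all genes tested higher in LECs and 1.84% higher in BECs. *Cldn5*, the claudin of endothelial tight junctions, stood at 2754 and 2251 CPM in LECs against 1151 and 1018 CPM in BECs (log2 difference 1.20 ± 0.12, adjusted p = 0.0277), and the LEC sums were above both BEC sums. VE-cadherin (*Cdh5*), the adhesion molecule of endothelial junctions and the promoter used for Cre in the mutant strain, stood at 206 and 181 CPM in LECs against 474 and 556 CPM in BECs (log2 difference -1.41 ± 0.18, adjusted p = 0.0405). *Esam*, a junctional adhesion molecule of endothelium and platelets, stood at 146 and 153 CPM in LECs against 1543 and 1501 CPM in BECs (log2 difference -3.35 ± 0.15, adjusted p = 0.017), nearly the same in both mice. The C-type lectin *Clec14a* (-2.90 ± 0.24), the adhesion receptor *Adgrl4* (-2.58 ± 0.27) and the guidance receptor *Robo4* (-1.56 ± 0.18) were also higher in BECs. *Pecam1*, a gene of the sort, stood at 1504 and 1081 CPM in LECs against 2401 and 2134 CPM in BECs and did not pass (adjusted p = 0.07). The endothelial receptor *Tie1* stood at 1115 and 951 CPM in LECs against 896 and 655 CPM in BECs and did not pass either (adjusted p = 0.225).

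Known lymphatic genes were higher in LECs in 14 of 20 cases and higher in BECs in none, with a median log2 difference of 3.81. *Lyve1*, the hyaluronan receptor of lymphatic capillaries, stood at 2509 and 2116 CPM in LECs against 90.3 and 25.4 CPM in BECs (log2 difference 5.58 ± 0.49, adjusted p = 0.0221). The secreted glycoprotein *Reln* stood at 1064 and 858 CPM in LECs against 44.1 and 7.46 CPM in BECs (log2 difference 5.70 ± 0.69, adjusted p = 0.037). The BEC level of both was higher in control 1 than in control 2, as for the other class's markers in general. *Ccl21a*, the chemokine that draws CCR7-bearing dendritic cells and T cells into lymphatics, stood at 962 and 919 CPM in LECs against 186 and 111 CPM in BECs (log2 difference 2.71 ± 0.23, adjusted p = 0.0216), and its reads cannot be separated from those of its near-identical copies. *Pdpn*, which the sort had used, stood at 509 and 574 CPM in LECs against 14.1 and 18.1 CPM in BECs (log2 difference 5.08 ± 0.19, adjusted p = 0.017). Per kilobase of exon, *Ccl21a* reached 1081 CPM in LECs, *Lyve1* 887 CPM, *Mmrn1* 561 CPM and *Pdpn* 298 CPM, so that *Ccl21a* and *Lyve1* were the more abundant of these 4 transcripts. Without control 2, in a fit that takes its spread from the mutant mice as well, 9 of the 20 lymphatic genes passed, and without control 1, 13.

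Further lymphatic genes with large differences were the polarity gene *Pard6g* (5.96 ± 0.61), the mechanosensitive channel *Piezo2* (6.04 ± 0.62), the fibrinogen-like protein *Fgl2* (5.26 ± 0.58) and the surface glycoprotein *Thy1* (3.29 ± 0.21). Integrin alpha 9 (*Itga9*), which lymphatic valves need, stood at 169.9 and 206 CPM in LECs against 43.5 and 24.3 CPM in BECs (log2 difference 2.52 ± 0.36, adjusted p = 0.0474). Of the 6 lymphatic genes that did not pass, *Nrp2*, the VEGFC co-receptor, stood at 258 and 444 CPM in LECs against 153 and 101 CPM in BECs (adjusted p = 0.155). The scavenger receptor *Stab2* stood at 12.1 and 2.55 CPM in LECs against 0.132 and 0.0245 CPM in BECs (adjusted p = 0.0955), so its ratio was large but its level low and uneven between mice. *Sox18* (989 and 755 CPM in LECs against 1079.7 and 939 CPM in BECs), *Gata2* (281 and 137 CPM in LECs against 304 and 178 CPM in BECs) and *Hoxd8* (90.7 and 109 CPM in LECs against 71.3 and 43.2 CPM in BECs) did not pass either, with adjusted p of 0.523, 0.581 and 0.31. Over the 20 lymphatic genes 3 had a negative log2 difference. In 1 of them, not named here, both BEC sums lay above both LEC sums, as in 22.7% of all genes tested.

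Blood vascular genes were higher in BECs in 13 of 20 cases and higher in LECs in none, with a median log2 difference of -4.94. The stem cell and capillary antigen *Cd34* stood at 73.5 and 27.8 CPM in LECs against 1314 and 1492 CPM in BECs (log2 difference -4.95 ± 0.48, adjusted p = 0.0258). *Ly6c1* stood at 83.7 and 27.2 CPM in LECs against 1352 and 1648 CPM in BECs (log2 difference -4.97 ± 0.57, adjusted p = 0.0334), with reads that its copy *Ly6c2* may share. The LEC level of both was lower in control 2 than in control 1. *Plvap*, which forms the diaphragms of caveolae and fenestrae, differed less, with 792 and 655 CPM in LECs against 2159 and 2095 CPM in BECs (log2 difference -1.56 ± 0.14, adjusted p = 0.0221). When cells with at least 300 CPM of the other gate were left out, 178 genes passed in all, among them 5 blood vascular genes, 11 lymphatic genes, 3 fatty acid genes and 2 MHC class I and interferon genes, with a median log2 difference of -4.81 in the blood vascular list.

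Genes of particular blood vessel segments were also measured, and the 6 given next were all higher in BECs. Of the tip cell genes, *Esm1* (endocan) stood at 1.12 and 0.665 CPM in LECs against 65.7 and 178 CPM in BECs (log2 difference -6.95 ± 0.74, adjusted p = 0.0294). Apelin (*Apln*) stood at 1.65 and 0.989 CPM in LECs against 109 and 194 CPM in BECs (log2 difference -6.82 ± 0.56, adjusted p = 0.0214). The venular gene *Ackr1*, the atypical chemokine receptor that presents chemokines to leukocytes, stood at 4.83 and 1.22 CPM in LECs against 195 and 129.8 CPM in BECs (log2 difference -6.01 ± 0.50, adjusted p = 0.0216). P-selectin (*Selp*) stood at 7.86 and 1.96 CPM in LECs against 144 and 103 CPM in BECs (log2 difference -4.94 ± 0.52, adjusted p = 0.0288). In *Ackr1*, 25.7% of the exon length overlaps the gene *Cadm3*. *Sox17*, a transcription factor of arterial endothelium, stood at 38.5 and 6.82 CPM in LECs against 638 and 348 CPM in BECs (log2 difference -4.85 ± 0.50, adjusted p = 0.0274). The capillary protein *Gpihbp1*, which carries lipoprotein lipase, stood at 364 and 389 CPM in LECs against 905 and 1207 CPM in BECs (log2 difference -1.47 ± 0.16, adjusted p = 0.0295).

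For *Vwf*, *Nrp1* and *Aplnr* the test depended on which cells and reads were used, the side of the plate among them. The clotting protein von Willebrand factor (*Vwf*) stood at 68.9 and 3.46 CPM in LECs against 1039 and 698 CPM in BECs (log2 difference -5.74 ± 1.15, adjusted p = 0.098). Neuropilin 1 (*Nrp1*), the VEGFA and semaphorin co-receptor, stood at 52.8 and 5.33 CPM in LECs against 806 and 993 CPM in BECs (log2 difference -5.71 ± 1.11, adjusted p = 0.0924). The apelin receptor *Aplnr* stood at 46.3 and 9.13 CPM in LECs against 643 and 761 CPM in BECs (log2 difference -5.08 ± 0.78, adjusted p = 0.0562). None of these passed, and the LEC sums of the 2 mice lay far apart. Each of these genes did pass with cells thinned to 50000 reads and with a gate of *Prox1* against *Flt1*. None passed with cells of at least 100000 reads or without cells with 300 CPM of the other gate. When only the cells on their class's own side of the plate were used, a choice made after the data were seen that left out 12 and 1 LECs and 2 BECs of each mouse, the log2 difference was -6.47 for *Vwf* (adjusted p = 0.0254), -6.34 for *Nrp1* (adjusted p = 0.0316) and -7.05 for *Aplnr* (adjusted p = 0.0148). The semaphorin *Sema3g*, at 6.79 and 0.108 CPM in LECs against 57.8 and 41.4 CPM in BECs, went from -5.47 (adjusted p = 0.202) to -7.11 (adjusted p = 0.0344). With these cells 794 genes were called instead of 650, 391 in LECs and 403 in BECs, and they included 632 of the 650. The blood vascular genes called then numbered 17 of 20.

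Of 38 transcription factors of endothelium, 6 were higher in LECs (15.8%) and 5 in BECs (13.2%), beside 1.71% and 1.84% of all genes tested. Among these, *Foxc2*, *Maf*, *Tbx1* and *Nr2f2* also count in the lymphatic list above and *Sox17* in the blood vascular list. *Foxc2*, which directs valve formation, stood at 142 and 94.3 CPM in LECs against 3.4 and 1.37 CPM in BECs (log2 difference 5.73 ± 0.38, adjusted p = 0.0191). *Maf* stood at 172 and 123 CPM in LECs against 7.12 and 2.45 CPM in BECs (log2 difference 5.11 ± 0.41, adjusted p = 0.0205) and *Tbx1* at 362 and 184 CPM in LECs against 18.8 and 8.64 CPM in BECs (log2 difference 4.34 ± 0.21, adjusted p = 0.017). *Nr2f2*, which marks veins as well as LECs, stood at 315 and 204 CPM in LECs against 44.3 and 24.3 CPM in BECs (log2 difference 2.95 ± 0.20, adjusted p = 0.0191). *Nfatc1*, a calcineurin-regulated factor of valve and lymphatic endothelium (1.93 ± 0.19), and *Foxp1* (1.28 ± 0.15) were the other genes higher in LECs.

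On the BEC side, *Meox2* stood at 43.6 and 46.6 CPM in LECs against 420.3 and 280.4 CPM in BECs (log2 difference -2.93 ± 0.25, adjusted p = 0.0219). Its partner in capillary endothelium, *Tcf15*, stood at 6.72 and 2.12 CPM in LECs against 134 and 85.3 CPM in BECs (log2 difference -4.82 ± 0.42, adjusted p = 0.0221). *Epas1*, the hypoxia-inducible factor HIF2 alpha, stood at 400.2 and 199 CPM in LECs against 1361 and 965 CPM in BECs (log2 difference -2.02 ± 0.19, adjusted p = 0.0248), and *Sox7* differed by -1.36 ± 0.16. *Meox1* stood at 475 and 333 CPM in LECs against 201 and 228 CPM in BECs (adjusted p = 0.144). The flow-induced factor *Klf2* stood at 185 and 77.6 CPM in LECs against 344 and 176 CPM in BECs (adjusted p = 0.0735), and its difference was carried in the same direction within each mouse while the classes overlapped.

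None of the 9 tested genes of the VEGF family and neuropilins passed. VEGFR2 (*Kdr*), the main signalling receptor for VEGFA, stood at 636 and 489 CPM in LECs against 532 and 649.8 CPM in BECs, a log2 difference of -0.08 ± 0.21 (adjusted p = 0.932) whose sign differed between the mice. Per kilobase of exon, *Kdr* stood at 62.3 CPM in LECs and 65.4 CPM in BECs, below *Flt4* in LECs (236 CPM) and near *Flt1* in BECs (60.4 CPM). *Vegfc*, the ligand of VEGFR3, was read mainly in BECs, at 3.57 and 0.278 CPM in LECs against 43 and 73.4 CPM in BECs, but did not pass (adjusted p = 0.14). Placental growth factor (*Pgf*) stood at 44.8 and 47 CPM in LECs against 5.24 and 7.8 CPM in BECs (log2 difference 2.84 ± 0.44, adjusted p = 0.0579). Among 6 angiopoietin and TIE genes, the phosphatase VE-PTP (*Ptprb*), which restrains TIE2, was higher in BECs, with 142 and 137 CPM in LECs against 1134 and 1080.4 CPM in BECs (log2 difference -2.99 ± 0.15, adjusted p = 0.017). TIE2 (*Tek*) stood at 226 and 207 CPM in LECs against 469 and 398 CPM in BECs (adjusted p = 0.0568) and angiopoietin 2 (*Angpt2*) at 231 and 214 CPM in LECs against 87.8 and 132 CPM in BECs (adjusted p = 0.132).

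Notch genes that passed were all higher in BECs, 4 of 18 (22.2%, beside 1.84% of all genes tested), and the list had a median log2 difference of -0.94. They were the receptor *Notch4* (15.6 and 2.57 CPM in LECs against 183 and 116 CPM in BECs, log2 difference -4.51 ± 0.61, adjusted p = 0.0427), the ligands *Jag2* (-2.87 ± 0.25) and *Dll4* (153 and 141 CPM in LECs against 384 and 476 CPM in BECs, log2 difference -1.54 ± 0.19, adjusted p = 0.0374), and the target *Nrarp* (-2.35 ± 0.31), of whose exon length 79.4% overlaps the predicted gene *Gm38287*. The receptor *Notch1* stood at 732 and 732 CPM in LECs against 436 and 597 CPM in BECs (adjusted p = 0.234). Within BMP and TGF-beta signalling, 2 of 23 genes were higher in LECs and 3 in BECs. Endoglin (*Eng*), the BMP9 co-receptor, stood at 1008 and 749 CPM in LECs against 2312 and 1947 CPM in BECs (log2 difference -1.29 ± 0.13, adjusted p = 0.0272). Of the BMP targets, *Id1* stood at 118 and 102 CPM in LECs against 575 and 629.9 CPM in BECs (log2 difference -2.45 ± 0.18, adjusted p = 0.0196). *Id3* stood at 282 and 309.9 CPM in LECs against 887 and 901 CPM in BECs (log2 difference -1.60 ± 0.14, adjusted p = 0.0227). The TGF-beta receptor *Tgfbr2* stood at 1983 and 1419.5 CPM in LECs against 499 and 552 CPM in BECs (log2 difference 1.68 ± 0.20, adjusted p = 0.037), and the BMP signal transducer *Smad1* was higher in LECs by 1.70 ± 0.17.

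Genes of guidance molecules lay on both sides. The secreted semaphorin *Sema3a* was higher in LECs (91.1 and 84.8 CPM in LECs against 2.24 and 2.09 CPM in BECs, log2 difference 5.35 ± 0.35, adjusted p = 0.0191). So was *Sema3d* (193 and 166 CPM in LECs against 7.54 and 3.66 CPM in BECs, log2 difference 5.08 ± 0.35, adjusted p = 0.0191), as was *Sema6a* (1.21 ± 0.16). The membrane-anchored *Sema7a* (1.18 and 0.572 CPM in LECs against 41.1 and 57.4 CPM in BECs, log2 difference -5.87 ± 0.68, adjusted p = 0.0333), ephrin B1 (*Efnb1*, -3.46 ± 0.38) and the semaphorin receptor *Plxnd1* (61 and 73.6 CPM in LECs against 346 and 314 CPM in BECs, log2 difference -2.30 ± 0.20, adjusted p = 0.0221) were higher in BECs. Over all 28 members 4 were higher in LECs, with *Reln* the remaining gene, and 4 in BECs, with *Robo4* the remaining gene. The arterial ligand ephrin B2 (*Efnb2*) stood at 78.8 and 95.8 CPM in LECs against 66.2 and 71.9 CPM in BECs (adjusted p = 0.568) and its receptor *Ephb4* at 462 and 293 CPM in LECs against 386 and 201 CPM in BECs (adjusted p = 0.322).

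Junction genes of the same families differed from each other. Of the 21 genes tested, *Cldn5*, given above, was among those higher in LECs. *Jam2* stood at 31 and 7.11 CPM in LECs against 899 and 751 CPM in BECs (log2 difference -5.78 ± 0.58, adjusted p = 0.0272) and *Jam3* differed by -3.52 ± 0.23, with 36.2% of its exons overlapping the predicted gene *Gm48796*. *Gja1* (connexin 43) stood at 363 and 378 CPM in LECs against 346 and 373 CPM in BECs, a log2 difference of 0.04 ± 0.15 (adjusted p = 0.949). *Gja4* (connexin 37) stood at 489 and 525 CPM in LECs against 176 and 293 CPM in BECs (adjusted p = 0.0848) and the arterial *Gja5* (connexin 40) at 12.9 and 3.76 CPM in LECs against 84.4 and 133 CPM in BECs (adjusted p = 0.0873). Of 10 genes of caveolae and diaphragms, *Cav1*, the coat protein of caveolae, stood at 1268 and 1291 CPM in LECs against 2713 and 2844 CPM in BECs (log2 difference -1.12 ± 0.12, adjusted p = 0.0294). The membrane-remodelling genes *Pacsin2* (1.49 ± 0.17) and *Pacsin3* (2.74 ± 0.34) were higher in LECs, whereas *Ehd4* (-2.01 ± 0.29) and *Plvap* were higher in BECs.

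Chemokine genes were shared out between the classes, with 4 of 14 higher in LECs and 2 in BECs. *Cxcl12*, the ligand of CXCR4, stood at 240.0 and 67.1 CPM in LECs against 3453 and 3839 CPM in BECs (log2 difference -4.84 ± 0.59, adjusted p = 0.0371). The scavenging receptors were split by type. *Ackr2*, which removes inflammatory CC chemokines, stood at 404 and 183 CPM in LECs against 6.05 and 2.92 CPM in BECs (log2 difference 6.02 ± 0.22, adjusted p = 0.017). *Ackr3*, which removes CXCL12, stood at 471 and 308 CPM in LECs against 122 and 125 CPM in BECs (log2 difference 1.62 ± 0.23, adjusted p = 0.0469). *Ackr1* was higher in BECs as given above. Interleukin 7 (*Il7*), a survival factor for T cells, stood at 301 and 202 CPM in LECs against 12.4 and 11.3 CPM in BECs (log2 difference 4.39 ± 0.24, adjusted p = 0.0191). In numbers of reads per kilobase, *Ackr2* in LECs (105 CPM) and *Ackr1* in BECs (115 CPM) were at similar levels.

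Among 18 leukocyte adhesion and scavenger receptor genes, 3 were higher in LECs and 3 in BECs. The mannose receptor *Mrc1* stood at 119 and 84.7 CPM in LECs against 2.02 and 0.613 CPM in BECs (log2 difference 6.45 ± 0.50, adjusted p = 0.0205). Stabilin 1 (*Stab1*), a scavenger receptor, stood at 961 and 1578 CPM in LECs against 237 and 374 CPM in BECs (log2 difference 2.05 ± 0.14, adjusted p = 0.0191). The collectin *Colec12* differed by 2.46 ± 0.34. These genes are also expressed by macrophages. The summed level of 8 immune marker genes, of which 5 had enough reads to test, was 44.0 and 27.6 CPM in LECs and 22.9 and 12.6 CPM in BECs, and none of the 5 passed. E-selectin (*Sele*), an adhesion molecule of activated venules, stood at 1.89 and 0.124 CPM in LECs against 52.5 and 36.8 CPM in BECs (adjusted p = 0.079), and *Icam1* at 129 and 93.2 CPM in LECs against 197 and 149 CPM in BECs (adjusted p = 0.169). None of 10 genes of sphingosine-1-phosphate signalling passed. The kinase *Sphk1* stood at 72.5 and 37.3 CPM in LECs against 16.3 and 6.48 CPM in BECs (adjusted p = 0.0616). The exporter *Spns2* stood at 253 and 197 CPM in LECs against 103 and 125 CPM in BECs (adjusted p = 0.133). The receptor *S1pr1* stood at 759 and 900.0 CPM in LECs against 990.3 and 999 CPM in BECs (adjusted p = 0.45).

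In coagulation and fibrinolysis 2 of 18 genes were higher in LECs (11.1%) and 1 in BECs (5.56%), beside 1.71% and 1.84% of all genes tested. The thrombin inhibitor *Serpine2* stood at 575 and 639 CPM in LECs against 80.2 and 39.7 CPM in BECs (log2 difference 3.43 ± 0.35, adjusted p = 0.0275). The thrombin receptor *F2r* stood at 234 and 274 CPM in LECs against 34.7 and 47.6 CPM in BECs (log2 difference 2.64 ± 0.20, adjusted p = 0.0196). CD39 (*Entpd1*), which degrades extracellular ATP and ADP, stood at 42.2 and 14.2 CPM in LECs against 926 and 800.5 CPM in BECs (log2 difference -5.13 ± 0.43, adjusted p = 0.0216). Thrombomodulin (*Thbd*) stood at 242 and 154 CPM in LECs against 461 and 513 CPM in BECs (adjusted p = 0.0853).

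Transcripts of the basement membrane differed, with 9 of 25 genes higher in BECs and 3 in LECs. The matricellular *Sparcl1* stood at 156 and 57.1 CPM in LECs against 3257 and 3298 CPM in BECs (log2 difference -5.12 ± 0.45, adjusted p = 0.0221). Its relative *Sparc* stood at 513 and 445 CPM in LECs against 2619.5 and 3916 CPM in BECs (log2 difference -2.75 ± 0.24, adjusted p = 0.0221). The laminin chains *Lama5* (53 and 24.6 CPM in LECs against 352 and 420.2 CPM in BECs, log2 difference -3.41 ± 0.41, adjusted p = 0.0359) and *Lama3* (-4.14 ± 0.54), perlecan (*Hspg2*, -1.64 ± 0.16), multimerin 2 (*Mmrn2*, -1.99 ± 0.17), *Col4a2* (-1.15 ± 0.14) and *Fbln2* (-1.34 ± 0.15) were also higher in BECs. The 2 multiplexins, collagens that yield antiangiogenic fragments, went in opposite directions. *Col15a1* stood at 4.6 and 1.62 CPM in LECs against 114 and 192 CPM in BECs (log2 difference -5.74 ± 0.72, adjusted p = 0.0387) and *Col18a1* at 1031 and 897 CPM in LECs against 182 and 201 CPM in BECs (log2 difference 2.33 ± 0.17, adjusted p = 0.0196). *Col4a5* (5.49 ± 0.77) and the elastic fibre protein *Fbln5* (902 and 835 CPM in LECs against 288 and 256 CPM in BECs, log2 difference 1.67 ± 0.14, adjusted p = 0.0218) were the other genes higher in LECs. *Lama4* stood at 611 and 488 CPM in LECs against 240.2 and 289.8 CPM in BECs (adjusted p = 0.0945). Of 17 integrins, *Itgb2* (25.5 and 27 CPM in LECs against 0.438 and 0.172 CPM in BECs, log2 difference 6.52 ± 0.86, adjusted p = 0.0409) and *Itga9* were higher in LECs and the collagen receptor subunit *Itga1* (36.1 and 17.7 CPM in LECs against 182 and 171 CPM in BECs, log2 difference -2.80 ± 0.33, adjusted p = 0.034) in BECs. *Itgb2* is best known from leukocytes, whose marker sums are given above. Of the integrins tested, 11.8% were higher in LECs and 5.88% in BECs, beside 1.71% and 1.84% of all genes tested.

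Fatty acid handling genes lay on the BEC side. Of 18 genes 9 were higher in BECs and none in LECs, with a median log2 difference of -1.78. The fatty acid translocase *Cd36* stood at 104 and 59.1 CPM in LECs against 2128 and 2428 CPM in BECs (log2 difference -4.86 ± 0.32, adjusted p = 0.0191). The fatty acid binding protein *Fabp4* stood at 155 and 96.2 CPM in LECs against 1883 and 2247 CPM in BECs (log2 difference -4.07 ± 0.30, adjusted p = 0.0196). Its relative *Fabp5* stood at 11.2 and 20.9 CPM in LECs against 158 and 226 CPM in BECs (log2 difference -3.63 ± 0.25, adjusted p = 0.0191). In each of these the BEC sums of both mice lay several times above the LEC sums. The aquaglyceroporin *Aqp7*, which carries glycerol, was measured at 14.3 and 9.1 CPM in LECs against 377 and 369 CPM in BECs (log2 difference -5.03 ± 0.27, adjusted p = 0.0189). The fatty acid transporter *Slc27a3* (-2.87 ± 0.32) and the retinol binding protein *Rbp7* (-2.21 ± 0.24) passed as well. *Meox2* and *Tcf15* belong to this list because they drive fatty acid uptake in capillaries. The regulator *Pparg* stood at 45.2 and 46.7 CPM in LECs against 65.3 and 89.1 CPM in BECs (adjusted p = 0.276) and lipoprotein lipase (*Lpl*) at 31.6 and 63.6 CPM in LECs against 312 and 70.4 CPM in BECs (adjusted p = 0.435).

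Among 19 vasoactive genes, 4 were higher in BECs and 2 in LECs. Endothelin 1 (*Edn1*), a constrictor of smooth muscle, stood at 9.47 and 3.55 CPM in LECs against 171 and 98.9 CPM in BECs (log2 difference -4.48 ± 0.32, adjusted p = 0.0196). The angiotensin-converting enzyme *Ace* stood at 40.5 and 12.4 CPM in LECs against 303 and 233 CPM in BECs (log2 difference -3.57 ± 0.41, adjusted p = 0.0333). The prostaglandin synthase *Ptgs1* stood at 30.9 and 14.8 CPM in LECs against 147 and 78 CPM in BECs (log2 difference -2.32 ± 0.26, adjusted p = 0.0307). The soluble guanylate cyclase subunit *Gucy1a1*, a nitric oxide receptor, stood at 235 and 215 CPM in LECs against 42.1 and 41.5 CPM in BECs (log2 difference 2.43 ± 0.19, adjusted p = 0.0205). Endothelial nitric oxide synthase (*Nos3*) stood at 189 and 157 CPM in LECs against 441 and 313 CPM in BECs (adjusted p = 0.0542), and 32.3% of its exons overlap other genes. Of 16 transport genes, the water channel *Aqp1* stood at 629.7 and 338 CPM in LECs against 3016 and 2062 CPM in BECs (log2 difference -2.43 ± 0.16, adjusted p = 0.0191). The drug efflux pump *Abcb1a* stood at 2.13 and 0.587 CPM in LECs against 132 and 129 CPM in BECs (log2 difference -6.82 ± 0.64, adjusted p = 0.0248). The efflux pump *Abcg2* (-1.12 ± 0.15) and the taurine transporter *Slc6a6* (-2.44 ± 0.18) were higher in BECs. The mechanosensitive channels separated, *Piezo2* with 228 and 180.0 CPM in LECs against 6.49 and 1.35 CPM in BECs and *Piezo1* with 221 and 233 CPM in LECs against 221 and 196 CPM in BECs (adjusted p = 0.819).

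MHC class I and interferon genes were higher in BECs in 11 of 21 cases and higher in LECs in none, with a median log2 difference of -1.83. They are given in the order of the steps of antigen presentation. Immunoproteasome subunits cut peptides, *Psmb8* with 19.8 and 45.5 CPM in LECs against 289 and 356 CPM in BECs (log2 difference -3.41 ± 0.30, adjusted p = 0.0221) and *Psmb9* with 27.1 and 23.3 CPM in LECs against 165 and 164 CPM in BECs (log2 difference -2.71 ± 0.23, adjusted p = 0.0216). The peptide transporter *Tap1* stood at 16.6 and 19.6 CPM in LECs against 112 and 146 CPM in BECs (log2 difference -2.83 ± 0.25, adjusted p = 0.0221) and tapasin (*Tapbp*), which loads the peptides, was also higher in BECs (adjusted p = 0.0381). The presenting chain *H2-K1* stood at 344 and 390.1 CPM in LECs against 1599 and 1412 CPM in BECs (log2 difference -2.04 ± 0.16, adjusted p = 0.0205). *H2-D1* stood at 948 and 834 CPM in LECs against 1880.2 and 1653 CPM in BECs (log2 difference -0.99 ± 0.13, adjusted p = 0.0391). Near-identical H2 genes may share reads. Their light chain, beta-2 microglobulin (*B2m*), stood at 529 and 689 CPM in LECs against 1454 and 1971 CPM in BECs (log2 difference -1.49 ± 0.13, adjusted p = 0.0221). Some interferon-induced genes of the list passed, whereas *Ifit1*, *Isg15*, *Irf7*, *Ifitm3* and *Bst2* were not called. The transcription factor *Irf1* stood at 60.8 and 26.7 CPM in LECs against 249 and 233 CPM in BECs (log2 difference -2.58 ± 0.34, adjusted p = 0.0412). *Ifit3* stood at 10.2 and 8.78 CPM in LECs against 89.2 and 67.3 CPM in BECs (log2 difference -3.03 ± 0.32, adjusted p = 0.0294). The guanylate-binding protein *Gbp7* (73.1 and 34.7 CPM in LECs against 233 and 159 CPM in BECs, log2 difference -1.93 ± 0.23, adjusted p = 0.037) and *Ly6e* (-1.48 ± 0.21) also passed.

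Interferon-responsive promoters often hold the interferon-stimulated response element, searched here as GAAANNGAAA on either strand from 250 bases before to 50 bases after the start of RefSeq genes (build GRCm38.p6). It was present in 7 of 16 genes of the list that matched a promoter (43.75%) and in 3 of the 10 of these that were higher in BECs (30%). *Ifit1*, *Isg15*, *Ifitm3* and *Bst2*, which were not called, hold it too. Among all genes that matched a promoter, it was present in 17 of 254 higher in BECs (6.69%) and 6 of 222 higher in LECs (2.70%). The share was 3.77% of genes tested (438 of 11630) and 3.44% of all 32851 promoters. The 3 are shown because they are the members that both differed and hold the motif, each as the 250 bases before the start on the plus strand, with the motif or its complement in capitals. *B2m* holds it 139 bases before the start, *Ifit3* 156 and 122 bases before and *Gbp7* 53 bases before. These are matches of letters, and binding was not measured.
B2m, chr2:122147437-122147686: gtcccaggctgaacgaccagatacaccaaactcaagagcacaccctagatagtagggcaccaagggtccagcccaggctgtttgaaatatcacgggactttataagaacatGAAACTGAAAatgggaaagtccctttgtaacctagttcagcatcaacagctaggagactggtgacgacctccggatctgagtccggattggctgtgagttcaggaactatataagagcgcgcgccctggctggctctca
Ifit3, chr19:34583279-34583528: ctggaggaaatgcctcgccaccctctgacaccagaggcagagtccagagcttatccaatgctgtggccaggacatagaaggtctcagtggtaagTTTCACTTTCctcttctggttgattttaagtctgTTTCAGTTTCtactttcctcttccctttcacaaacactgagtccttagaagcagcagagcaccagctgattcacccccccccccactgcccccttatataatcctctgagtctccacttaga
Gbp7, chr3:142530086-142530335: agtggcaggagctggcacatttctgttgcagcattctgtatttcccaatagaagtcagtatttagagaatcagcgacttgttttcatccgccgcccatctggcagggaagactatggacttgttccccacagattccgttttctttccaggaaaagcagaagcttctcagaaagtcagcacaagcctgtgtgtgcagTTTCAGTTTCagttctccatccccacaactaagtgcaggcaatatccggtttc

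Immediate-early genes, which respond within minutes to many stimuli, and genes of the cell cycle were mostly not called. Of 16 immediate-early genes, *Nr4a1* stood at 6.01 and 19.1 CPM in LECs against 64.7 and 222 CPM in BECs (log2 difference -3.48 ± 0.25, adjusted p = 0.0196). *Zfp36* stood at 276 and 281 CPM in LECs against 651 and 764 CPM in BECs (log2 difference -1.34 ± 0.15, adjusted p = 0.0326). Both were higher in BECs. *Fos* stood at 874 and 443 CPM in LECs against 858 and 909 CPM in BECs (adjusted p = 0.494). None of 15 cell cycle genes passed. *Mki67* stood at 16.4 and 17.2 CPM in LECs against 0.482 and 4.83 CPM in BECs and *Top2a* at 6.4 and 9.27 CPM in LECs against 0.46 and 0.81 CPM in BECs, with adjusted p of 0.257 and 0.183. The LEC sums of both genes lay above the BEC sums in both mice, as for 22.0% of all genes tested. Among the 15 genes the sums did not overlap for 5 towards LECs and 2 towards BECs. The summed level of the list lay the other way, at 633 and 771 CPM in LECs against 884 and 1130 CPM in BECs.

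The largest differences lay in genes with at most 2.21 CPM in the other class. On the LEC side the 12 leading genes ran from a log2 difference of 6.70 to 7.33. *Fam217a* stood at 37.4 and 24.3 CPM in LECs against 0.46 and 0.0491 CPM in BECs (log2 difference 7.33 ± 1.02, adjusted p = 0.0457). *Ptx3* (pentraxin 3), a soluble pattern recognition protein of innate immunity, stood at 39 and 151 CPM in LECs against 0.46 and 1.2 CPM in BECs (log2 difference 6.70 ± 0.41, adjusted p = 0.0191), higher in LECs of control 2 than of control 1. The endocytic adaptor *Sh3gl3* stood at 159 and 146 CPM in LECs against 2.21 and 0.932 CPM in BECs (log2 difference 6.70 ± 0.44, adjusted p = 0.0191). *Duoxa2*, the maturation factor of the dual oxidase DUOX2, stood at 100.1 and 113 CPM in LECs against 1.47 and 0.662 CPM in BECs (log2 difference 6.71 ± 0.52, adjusted p = 0.0205), and 42.8% of the exons of *Duoxa2* overlap *Duoxa1*. The others were *Samsn1* (7.08), *Hhipl2* (6.86), the protease precursor *Pgc* (6.85), the inositol phosphate kinase *Ip6k3* (6.77), *Klrb1f* (6.75), *Brinp1* (6.73), *Rhpn1* (6.71) and the chemokine *Cxcl17* (6.70). Their LEC levels ran from 11.8 CPM for *Samsn1* in control 2 to 39.0 CPM for *Pgc* in control 2.

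On the BEC side the 12 leading genes ran from -6.84 to -7.53, and *Esm1* was among them. *Plscr1*, an interferon-induced phospholipid scramblase, stood at 0.225 and 0.278 CPM in LECs against 34.9 and 58 CPM in BECs (log2 difference -7.49 ± 0.58, adjusted p = 0.0205). *Zfp366* was measured at 0.225 and 0.108 CPM in LECs against 23.8 and 34.3 CPM in BECs (log2 difference -7.47 ± 0.89, adjusted p = 0.0354). The phosphatase *Dusp26* (0.823 and 0.185 CPM in LECs against 51.2 and 61.8 CPM in BECs, log2 difference -7.07 ± 0.88, adjusted p = 0.0381) and the nucleoside transporter *Slc28a2* (1.2 and 0.17 CPM in LECs against 79.9 and 61.7 CPM in BECs, log2 difference -7.13 ± 0.84, adjusted p = 0.035) had similar BEC levels in both mice, whereas their LEC levels were several times higher in control 1 than in control 2. *Deup1* (0.0187 and 0.17 CPM in LECs against 3.97 and 31.8 CPM in BECs, log2 difference -7.53 ± 0.98, adjusted p = 0.0403) was several times higher in BECs of control 2 than of control 1. So was *Tmem178* (0.0374 and 0.185 CPM in LECs against 3.75 and 40 CPM in BECs, log2 difference -7.28 ± 0.93, adjusted p = 0.0397). *Myrip* showed the reverse (0.617 and 0.0309 CPM in LECs against 49.5 and 7.51 CPM in BECs, log2 difference -6.89 ± 0.85, adjusted p = 0.0378). *Tdrp* (-7.40), the mitochondrial acetyl-CoA synthetase *Acss1* (-7.39), *Lrrc3b* (-7.34) and *Rapgef4*, the cAMP sensor EPAC2 (-6.84), completed the set.

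Shares of cells with a read, after thinning every cell to 50000 reads, separated genes read in most cells of a class from genes read in fewer (Wilson 95% intervals, counting error only). A cell without a read at this depth may still express the gene. *Lyve1* was read in 183 of 183 (100%, 97.9 to 100) and 169 of 175 (96.6%, 92.7 to 98.4) LECs and in 153 of 159 (96.2%, 92 to 98.3) and 118 of 157 (75.2%, 67.9 to 81.3) BECs, for control 1 and control 2 in turn. Its high share in BECs goes with a median of 78.1 and 23.5 CPM, 3.00 and 1.09% of the LEC median, which is the level of the other class's markers described above. *Ptx3* was read in 26 of 183 (14.2%, 9.88 to 20) and 65 of 175 (37.1%, 30.3 to 44.5) LECs and in 1 of 159 (0.629%, 0.111 to 3.48) and 10 of 157 (6.37%, 3.5 to 11.3) BECs. *Foxc2* was read in 61 of 183 (33.3%, 26.9 to 40.4) and 71 of 175 (40.6%, 33.6 to 48) LECs and in 15 of 159 (9.43%, 5.8 to 15) and 7 of 157 (4.46%, 2.18 to 8.92) BECs. At this depth *Ptx3* and *Foxc2* were thus read in a minority of LECs in both mice. *Esm1* was read in 14 of 183 (7.65%, 4.61 to 12.4) and 9 of 175 (5.14%, 2.73 to 9.48) LECs and in 35 of 159 (22%, 16.3 to 29.1) and 47 of 157 (29.9%, 23.3 to 37.5) BECs, a minority of BECs in both mice.

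Markers of other skin cells were measured beside these results. Of 8 keratinocyte markers none passed, and their summed level was 265 and 490 CPM in LECs and 661 and 406 CPM in BECs, so that the ranges overlap. *Krt14* stood at 54.6 and 59.9 CPM in LECs against 142 and 96.1 CPM in BECs. Of 6 fibroblast markers, *Col1a1* was higher in BECs (100.4 and 68.2 CPM in LECs against 241 and 199 CPM in BECs, log2 difference -1.40 ± 0.19, adjusted p = 0.0439). So was *Col1a2* (111 and 74.9 CPM in LECs against 300.3 and 195 CPM in BECs, log2 difference -1.41 ± 0.17, adjusted p = 0.0377). The list summed to 410 and 190 CPM in LECs and 815 and 581 CPM in BECs. The fibroblast receptor *Pdgfra* stood at 3.24 and 0.355 CPM in LECs against 1.56 and 3.8 CPM in BECs. Of 8 mural cell markers, *Rgs5* (67.7 and 40.8 CPM in LECs against 484 and 208 CPM in BECs, log2 difference -2.60 ± 0.22, adjusted p = 0.0216) was higher in BECs, and the list summed to 173 and 120 CPM in LECs and 806 and 351 CPM in BECs. The mural receptor *Pdgfrb* stood at 26.2 and 9.24 CPM in LECs against 75.2 and 15.3 CPM in BECs (adjusted p = 0.271). Cells with at least 50 CPM of at least 2 markers of any 1 other cell type numbered 90 and 31 LECs and 103 and 35 BECs. The keratinocyte list includes *Dsp* and *Perp*, which endothelium also expresses. At least 1000 CPM of *Krt5*, *Krt14* and *Krt15* was found in only 1 and 5 LECs and 9 and 4 BECs. When the cells with markers of other types were left out, 513 genes were called, 225 higher in LECs and 288 in BECs, and 434 of these were among the 650. The difference of *Col1a1* then turned to 0.33 (adjusted p = 0.910) and that of *Col1a2* became -0.13 (adjusted p = 0.976), and with a gate of 1000 CPM they were 1.13 and 0.96, neither passing. *Sparc* (-3.31), *Sparcl1* (-5.90) and *Rgs5* (-5.15) were still higher in BECs, each with an adjusted p of 0.0130, but *Rgs5* did not pass with a gate of 1000 CPM (-3.70, adjusted p = 0.132) or on the own side of the plate (-3.77, adjusted p = 0.112). Without cells with 300 CPM of the other gate *Rgs5* became -0.97 (adjusted p = 0.296) and *Sparc* -2.23 (adjusted p = 0.0857), while *Sparcl1* still passed (-4.49, adjusted p = 0.0467). Without the cells with markers of other types, 12 lymphatic genes, 17 blood vascular genes, 10 fatty acid genes and 10 MHC class I and interferon genes passed, in the same directions. Schwann cell and melanocyte markers summed to 76.5 and 19.8 CPM in LECs and 134 and 8.95 CPM in BECs, with *Cdh19* at 0 in all sums.

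The same gate in the 5 mutant mice, *Pik3ca*H1047R;*Cdh5-CreERT2* of genotype Cre+ given 4-OHT at 3 wk and taken at 5 wk, gave 1283 LECs and 1174 BECs. Their Cre is driven from the *Cdh5* promoter, which is active in all endothelium. Of the 313 genes higher in control LECs, 301 (96.2%) were also higher in LECs in each of the 5 mutant mice, against 18.5% of all genes tested, and of the 337 genes higher in control BECs, 322 (95.5%) were higher in BECs in each, against 17.1%. These mice were not used to call the genes. On their plates 96.2 to 100% of each class lay on the same side as in the control mice. Class and side of the plate can therefore not be told apart there either. In 1 gene of each set the direction was the opposite in each mutant mouse, *Igfbp4* and *Klk8*.

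The test of the difference itself, over 14 sums of 7 mice, found 41 of 21927 genes (0.187%) in which the LEC-BEC difference differed between control and mutant mice. In 34 genes (0.155%) the control difference lay further towards LECs and in 7 (0.0319%) further towards BECs, and 2525 genes had an unadjusted p under 0.05. *Nr2f2* stood at 315 and 204 CPM in LECs against 44.3 and 24.3 CPM in BECs in control mice, whereas in mutant mice it ran from 183 to 199 CPM in LECs and from 97.9 to 138 CPM in BECs. Its log2 difference was 0.44 to 0.94 in mutant mice and lay 2.22 ± 0.19 higher in controls (adjusted p = 0.0119). *Col18a1* moved in the same way, from a difference of 2.33 in controls to -0.01 to 0.67 in mutants (adjusted p = 0.0138), as did the redox enzyme *Nqo1*, from 3.53 to 0.54 to 0.91 (adjusted p = 0.0173). *Klk8*, a secreted serine protease, stood at 0.973 and 0.927 CPM in LECs against 38.2 and 25.4 CPM in BECs in control mice and in mutant mice at 58.0 to 330 CPM in LECs and 17.9 to 45.3 CPM in BECs (adjusted p = 0.00337). Of its exons 24.8% overlap another gene. *Plvap* was further towards BECs in mutant mice, at -2.64 to -2.32, against -1.56 in controls (adjusted p = 0.0331). The untreated mouse, the Cre- mouse and the mutant mice were each on plates of their own, so genotype and plate cannot be told apart. Without control 1 only 7 genes passed, and without control 2 none did, with 2855 at an unadjusted p under 0.05.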

How the data were processed

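Per the methods, the authors aligned the reads with TopHat2 2.1.1 to GRCm38 with the chicken *PIK3CA* sequence, removed duplicate reads with SAMtools 0.1.18 and counted reads per gene with featureCounts. The deposited unit is the raw read count per gene and well, 46609 genes of which 92 are spike-ins, with no filter on wells, and no count column was left unused. The header of the control 2 table does not show whether duplicates were removed. The annotation version is not given in the sources used here. Symbols came from GENCODE M21 (46005 of 46517 Ensembl genes) and exon lengths from the deposited length table.

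Counts were summed per mouse and class. The 4 sums of the control mice were compared in edgeR 4.0.16 (R 4.3.3, filterByExpr, TMM, quasi-likelihood F test, mouse as a block), after the 6 gate genes were removed, and p-values were adjusted by Benjamini-Hochberg over all 18337 genes. The pairs come from the same mouse and plate. Log2 differences are LEC minus BEC with standard errors, CPM are after TMM scaling, and values are given for control 1 and then control 2. Each class has 1 sum per mouse, so p-values rest on the spread between 2 mice, whose strain and treatment differ. The test also draws the spread of a gene towards that of the other genes (median prior degrees of freedom 3.28). Standard errors and p-values therefore rest in part on other genes. The interaction with genotype was fitted over 14 sums of 7 mice. Ratios of single mutant mice used a pseudocount of 0.5 CPM. DESeq2 1.42.0 was an alternative. Other alternatives were other scalings, filters, depths, gates and sets of mice. The plate side and the removal of cells with keratins were chosen after the data were seen. Scripts were tested on simulated data. No doublet caller was run, and the gate leaves out no cell that holds both gate sums.

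The members, the gene lists and the tests were chosen with earlier results of these data known. Named genes are anchors of 28 lists, up to 4 called members per list and direction, the 12 leading called genes per direction whose mean level reached 3 on the log2 CPM scale, with no overlap of classes and no predicted symbol, relatives in gene families, and up to 5 genes per direction of the interaction. Further called members of lists were named after their values were seen, and some named genes are not reported here. Sums held 41017823 to 61229272 reads. Smart-Seq2 reads carry no barcode per molecule and several can stem from the same molecule, so Wilson intervals on shares cover counting error only. Smart-Seq2 as described is not stranded, so reads of overlapping genes on opposite strands cannot be told apart. Promoters came from RefSeq. Python 3.11.15 and matplotlib 3.10.9 were used.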

Additional observations from a re-analysis of the deposited data

Results flagged for a closer look

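In 13 named genes the difference between LECs and BECs was itself different in control and mutant mice, by edgeR's quasi-likelihood test of the interaction over 14 sums with the mouse as a block. The values are log2 LEC over BEC in control mice minus the same in mutant mice, with the standard error. In *Nr2f2*, *Col18a1*, *Nqo1*, *Reep1*, *Tbc1d4* and *Chst1*, all higher in control LECs, the control difference was larger towards LECs by 2.22 ± 0.19, 1.96 ± 0.19, 2.82 ± 0.29, 2.92 ± 0.27, 2.82 ± 0.28 and 3.84 ± 0.49, and in *Nt5dc2* by 2.92 ± 0.39. *Reep1* stood at 167 and 145 CPM in LECs against 9.4 and 6.82 CPM in BECs in control mice, and *Tbc1d4* at 101 and 94.6 CPM in LECs against 5.28 and 9.1 CPM in BECs. In *Sox13* and *Adam15*, higher in control BECs, the control difference was larger towards BECs, with -2.57 ± 0.20 and -2.25 ± 0.30. *Sox13* stood at 20.7 and 18 CPM in LECs against 199.7 and 187 CPM in BECs in control mice, and *Adam15* at 83.6 and 58.3 CPM in LECs against 975 and 799 CPM in BECs. *Plvap* had a value of 0.99 ± 0.11, since its mutant difference was the larger one. In *Nt5dc2* the log2 difference ran from -0.94 to 0.28 in mutant mice (median -0.12), so its sign varied between them. In 3 of the 13 genes the sign was turned in each mutant mouse, *Klk8* with -7.24 ± 0.42, *Thbd* with -2.17 ± 0.29 and *Ggt5* with -8.26 ± 0.97. Of these only *Klk8* had passed in edgeR's test of LECs against BECs within control mice. *Thbd* (adjusted p = 0.0853) and *Ggt5* (adjusted p = 0.342) had not. *Ggt5* stood at 2.32 and 3.06 CPM in LECs against 20.1 and 7.34 CPM in BECs in control mice and ran from 47.1 to 81.0 CPM in LECs and from 0.191 to 2.93 CPM in BECs of mutant mice. *Thbd* stood at 242 and 154 CPM in LECs against 461 and 513 CPM in BECs in control mice and ran from 633 to 823 CPM in LECs and from 322 to 466 CPM in BECs of mutant mice. Plate and genotype cannot be told apart in these values.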

How the results depend on the processing

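The comparison of LECs with BECs rests on 2 control mice. The 650 calls kept their direction in every alternative in which they were called again, and none was called in the other direction. Not all were called again in each alternative. With DESeq2 and with cells thinned to 50000 reads all 650 were. Only 499 were without the replicate block, 434 without cells with markers of other types and 174 without cells with 300 CPM of the other gate. The count was 606 without the replicate block, which takes each mouse as its own pair, and 622 with DESeq2 size factors, 644 with equal numbers of cells, 639 with cells of at least 100000 reads, 771 without the filter on low counts, 759 with a gate of 1000 CPM, 858 with a gate of *Prox1* against *Flt1*, 513 without cells with markers of other types and 957 with spike-in reads as library sizes. It was 794 with cells on the own side of the plate and 624 without cells with keratins, both chosen after the data were seen. It moved by more than 1.5 times to 2796 with DESeq2, 2271 with all 7 mice, 1578 with cells thinned to 50000 reads and 178 without cells with 300 CPM of the other gate. Leaving out a control mouse, which takes the spread from the mutant mice and assumes that the remaining control varies like them, gave 1137 to 1160 calls. The 41 genes whose difference varied with genotype became 1238 with DESeq2, 35 without the filter, and 0 to 7 when a control mouse was left out (0 without control 2, with 2855 genes at an unadjusted p under 0.05, and 7 without control 1). The cause of these changes was not tested.

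Among the named genes the direction turned for 2 that were called, *Col1a1* (1.13 with a gate of 1000 CPM and 0.33 without cells with markers of other types) and *Col1a2* (0.96 with a gate of 1000 CPM), and for 11 that were not called. With spike-in library sizes, which shift the median of all genes to 0.43, *Gata2* became 0.19, *Kdr* 0.36, *S1pr1* 0.17 and *Sox18* 0.22. Thinning gave -0.20 for *Efnb2* and -0.024 for *Piezo1*. Without control 2, *Fos* became 0.044, *Kdr* 0.27 and *Pdgfra* 1.07, against -0.95, -0.32 and -3.32 without control 1. With a gate of 1000 CPM, *Gja1* became -0.044, *Pdgfra* 2.28 and *Pdgfrb* 0.23. Without cells with markers of other types, *Gja1* became -0.026, *Krt14* 0.058, *Pdgfrb* 0.14 and *Piezo1* -0.23. *Pdgfra* became 0.14 on the own side of the plate, *Pdgfrb* 0.67 without cells with 300 CPM of the other gate, and *Piezo1* -0.092 with the gate of *Prox1* against *Flt1*. Of 3108 comparisons of a named gene with an alternative, 2634 kept direction and side of the threshold, 303 lost and 149 gained the call.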
